A study of Mus musculus with 13 samples.

Results

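The long-term hematopoietic stem cell (LTHSC) array of c-Cbl -/- mice was set against the LTHSC array of c-Cbl A/- mice, which are 2 of the 13 arrays in a study of sorted mouse stem and progenitor cells. The -/- mice had no intact c-Cbl allele. The A/- mice had 1 null allele and 1 copy of an allele named A, whose nature the labels leave unstated. Both genotypes therefore shared 1 null allele, and the comparison sets a second null allele against the A allele. An LTHSC array of c-Cbl +/+ mice, with both alleles intact, is given last as a side reference. All mice were of C57BL/6 background. The arrays were chosen by the genotype and cell type in their labels, and 2 arrays make up the comparison. Cells were sorted as CD34-, Flt3-, Lineage-, c-Kit+ and Sca1+. The labels state neither age nor sex, nor whether several mice were pooled. The other 10 arrays held +/+ and A/- cells of 5 later populations.

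c-Cbl is an E3 ubiquitin ligase. It binds activated receptor tyrosine kinases, such as c-Kit and Flt3, attaches ubiquitin to them and so sends them to degradation, and it also acts as an adaptor for signalling proteins. In hematopoietic stem cells, receptors of this kind and cytokine receptors feed the STAT5, RAS-ERK and phosphoinositide 3-kinase pathways, which control survival and division. LTHSC are the rare bone marrow cells that can rebuild the blood for life, and most of them are out of the cell cycle at any time.

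Gene expression was read on Illumina bead arrays as fluorescence of biotinylated cRNA. Levels below are normalized log2 signals, so a difference of 1 is a 2-fold difference, and differences are -/- minus A/-. A feature is the brightest probe of a gene, or a probe without a gene symbol. It was counted as detected at a detection p under 0.01, which compares a probe with the negative controls of its array. Each genotype had 1 array, so no spread between replicates could be estimated and no difference below was tested. A 2-fold difference served as the threshold for counting. Where the dimmer array did not detect the probe, the fold is given as a bound, "at least N-fold", while counts use the measured levels unless stated. The number of arrays limits the precision, and in bulk samples fewer cells of a type and less RNA per cell cannot be told apart.

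The mutant arrays were alike in depth. The -/- array detected 38.0% of probes, the A/- array 37.8% and the +/+ array 36.3%, with median unnormalized signals of 51.7 in -/-, 51.9 in A/- and 52.9 in +/+ cells, against 148.3 to 191.0 on the other 10 arrays. Differences were smaller when the dim LTHSC arrays were normalized without the other 10: Hbb-bs, detected on both, differed by -3.08 in place of -3.49 and Trim30a by -2.91 in place of -3.77. The single Cbl probe was not detected on any LTHSC array, at 5.0 in -/-, 5.05 in A/- and 5.18 in +/+ cells, so it checks no genotype label. Kit, the receptor used in the sort, was at 13.91 in -/-, 13.68 in A/- and 13.83 in +/+ cells. Flt3 was detected on none of the 13 arrays, so its probe checks no sort. Cd34 was detected at 10.21 in -/-, 10.14 in A/- and 10.01 in +/+ cells, although the cells were sorted as negative for the protein. Slamf1, the CD150 antigen of LTHSC, was at 7.25 in -/-, 7.74 in A/- and 7.32 in +/+ cells. Procr, another LTHSC marker, was detected in neither mutant. The Y-linked Eif2s3y was detected in both mutants, at 10.37 in -/- and 10.57 in A/- cells, but not in +/+ cells, at 4.64, whereas the Y-linked Kdm5d was detected on all 3, at 7.21 in -/-, 6.97 in A/- and 6.82 in +/+ cells. The pair of Y-linked genes thus disagreed on the +/+ array. Xist, the long RNA of X inactivation, was at 12.31 in -/-, 11.31 in A/- and 11.01 in +/+ cells by its brightest probe, and its other 3 probes differed between -/- and A/- by 0.78, 0.36 and -0.82. The part of sex in the results was not tested.

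Of 12587 features detected on at least 1 of the 2 arrays, 143 (1.14%) were at least 2-fold higher and 388 (3.08%) at least 2-fold lower in -/- than in A/- cells, or 4.22% in either direction. Genes lower in -/- cells thus outnumbered those higher, and 73.1% of the differing features were lower. The size of the excess depended on the normalization: with the 3 LTHSC arrays normalized alone, 38 features were higher and 238 lower, which puts 86.2% of them on the lower side. The authors' processed values gave 13 higher and 152 lower, or 92.1% lower. Features with a gene symbol gave 83 higher (0.844%) and 237 lower (2.41%) of 9837. The excess was larger among wide differences, with 8 features at least 4-fold higher and 108 at least 4-fold lower, but these counts include probes that the dimmer array did not detect. With the bound in place of the measured fold, 97 features were at least 2-fold higher and 319 lower, 7 at least 4-fold higher and 100 lower, and 0 at least 8-fold higher and 35 lower.

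The differences had an SD of 0.50 and a median of 0.01, with a 5th percentile of -0.80 and a 95th of 0.62. Against the +/+ array, the -/- array had 153 features at least 2-fold higher (1.24%) and 304 lower (2.47%) of 12301. The A/- array had 313 at least 2-fold higher (2.53%) and 208 lower (1.68%) of 12379 against the same +/+ array. These 3 pairs share arrays, and their SDs lay between 0.47 and 0.50, so no array stood apart by its spread. Brightness, taken on the brighter of the 2 arrays, mattered for the higher genes. A level between 6 and 8 was held by 93 of the 143, against 149 of the 388 lower features. Among the 4382 features at 10 or more on the brighter array, 11 were at least 2-fold higher and 97 at least 2-fold lower.

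Promoter sequence is shown for 4 of the genes described below, chosen because each holds a motif that was searched. Each run is the 250 bases before the RefSeq transcript start site in assembly GRCm38.p6, 5′ to 3′ on the gene's strand, with motifs in capitals. Socs3, on the minus strand at chr11:117969367-117969616, and Il1r2, on the plus strand at chr1:40085843-40086092, hold the STAT motif TTCNNNGAA. Hbb-bs, on the minus strand at chr7:103827929-103828178, holds CCACACCC, the letters bound by the erythroid factor Klf1, and CCAAT. H2bc8, on the plus strand at chr13:23571150-23571399, holds CCAAT, once on each strand, and TATAAA.
Socs3: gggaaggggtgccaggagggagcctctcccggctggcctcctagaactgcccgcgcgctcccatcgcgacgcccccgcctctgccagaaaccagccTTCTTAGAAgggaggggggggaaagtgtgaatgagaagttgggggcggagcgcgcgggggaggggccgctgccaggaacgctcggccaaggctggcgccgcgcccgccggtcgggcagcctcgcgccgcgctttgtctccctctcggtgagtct
Il1r2: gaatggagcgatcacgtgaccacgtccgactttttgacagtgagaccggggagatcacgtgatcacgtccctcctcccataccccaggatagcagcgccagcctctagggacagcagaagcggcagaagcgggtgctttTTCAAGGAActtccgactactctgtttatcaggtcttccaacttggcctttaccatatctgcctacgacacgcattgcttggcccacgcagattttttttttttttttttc
Hbb-bs: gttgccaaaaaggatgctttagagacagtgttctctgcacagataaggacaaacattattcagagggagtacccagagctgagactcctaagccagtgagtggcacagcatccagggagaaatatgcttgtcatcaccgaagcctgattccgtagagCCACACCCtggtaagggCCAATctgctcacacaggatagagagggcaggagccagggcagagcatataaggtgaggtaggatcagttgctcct
H2bc8: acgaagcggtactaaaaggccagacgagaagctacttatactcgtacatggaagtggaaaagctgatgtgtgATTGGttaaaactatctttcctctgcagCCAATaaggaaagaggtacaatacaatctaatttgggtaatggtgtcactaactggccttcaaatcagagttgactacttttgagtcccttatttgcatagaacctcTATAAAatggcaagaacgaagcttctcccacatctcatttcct

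Motifs were searched on both strands, from 250 bases before to 50 bases after the start site, in 32851 promoters of the RefSeq table. TTCNNNGAA was found in 8.3% of all of them, CCACACCC in 3.56%, CCAAT in 37.4% and TATAAA in 13.6%. The motif starts 154 bases before the start site in Socs3 and 111 in Il1r2. In Hbb-bs, CCACACCC starts 93 and CCAAT 76 bases before the start site. In H2bc8, the CCAAT letters start 178 and 150 and TATAAA starts 43 bases before it. Of the 16 widest lower genes with a promoter in the table, Il1r2 alone (6.25%) held the STAT motif, and of the 3 lower globin genes Hbb-bs alone held CCACACCC. Such a match is a description of these letters and no evidence that a factor bound there.

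Among the 20 named genes with the widest lower values in -/- cells, several were high in A/- cells alone. Saa3, an acute phase serum amyloid A protein, was at 4.77 in -/-, 8.91 in A/- and 4.77 in +/+ cells, at least 10.8-fold lower in -/- than in A/- cells. Gdpd3, a lysophospholipase D, was at 6.88 in -/-, 10.72 in A/- and 6.20 in +/+ cells, a difference of -3.83. Il1r2, the decoy receptor that binds interleukin-1 without signalling and whose promoter is printed above, was at 5.61 in -/-, 8.89 in A/- and 6.34 in +/+ cells, a difference of -3.28. For these genes the -/- and +/+ levels lay within 1 of each other and the A/- array stood above both. The same order was seen for Stfa1, a stefin A cysteine protease inhibitor of neutrophils, at 6.83 in -/-, 10.13 in A/- and 6.76 in +/+ cells. Stfa2 was at 5.64 in -/-, 8.95 in A/- and 5.68 in +/+ cells. Zfp985, a zinc finger gene, was at 4.66 in -/-, 7.69 in A/- and 4.74 in +/+ cells, at least 4.65-fold lower in -/- than in A/- cells. Stefin A genes are near-identical copies, so their probes may share signal and the single genes are uncertain. Ramp2, a partner of the adrenomedullin receptor, was at 5.64 in -/-, 8.69 in A/- and 6.42 in +/+ cells.

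Other named genes were low on the -/- array alone among the 3 LTHSC arrays. Tm7sf3, a multipass membrane protein, was not detected in -/- cells, at 4.64, against 8.93 in A/- and 9.20 in +/+ cells. This is at least 11-fold lower in -/- than in A/- cells, and the other 10 arrays all detected the probe, at 8.97 to 11.59. Trim30a, an interferon-induced TRIM protein that restrains NF-kB signalling, was at 5.495 in -/-, 9.27 in A/- and 8.64 in +/+ cells, and at 7.73 to 10.08 on the other 10 arrays. For both genes the -/- level lay below all 12 other arrays. Snx5, a sorting nexin of endosomes, was at 4.93 in -/-, 8.16 in A/- and 8.42 in +/+ cells, at least 6.42-fold lower in -/- than in A/- cells. Twistnb, a subunit of RNA polymerase I, was at 6.15 in -/-, 9.37 in A/- and 9.73 in +/+ cells, a difference of -3.21. Usp25, a deubiquitinase, was at 4.73 in -/-, 7.76 in A/- and 7.29 in +/+ cells, at least 4.89-fold lower in -/- than in A/- cells. These 3 genes too lay below every other array in -/- cells. Naip5, a sensor of bacterial flagellin, was at 5.57 in -/-, 9.08 in A/- and 8.63 in +/+ cells, and 9 of the other 10 arrays detected it, at 5.05 to 8.62 over all 10. Wfdc2, a whey acidic protein type protease inhibitor, was not detected in -/- cells, at 5.28, against 9.18 in A/- and 8.98 in +/+ cells, but only 3 of the other 10 arrays detected it. Psmd8, a lid subunit of the proteasome, was at 7.93 in -/-, 10.82 in A/- and 11.02 in +/+ cells. It was the only one of 38 detected proteasome genes at least 2-fold apart, a lower share of 2.63% beside 3.08% of all features.

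Most of these calls rest on 1 probe. Tm7sf3 had a second probe and Usp25 a further 3, and none of those was detected on either mutant array. Twistnb had a second detected probe that differed by -2.20. The second probe of Snx5 was not detected in -/- cells and was at least 1.86-fold lower there than in A/- cells. In all, 15 features were undetected on the -/- array and detected on the other 12 arrays, and 19 were undetected on the A/- array alone. Such counts ran from 5 to 342 on the remaining arrays. Picking features in this way largely sets the direction of their difference. Of the 15, 8 were at least 2-fold lower in -/- than in A/- cells, and 6 of these had a symbol: Tm7sf3, Snx5, Usp25, Lrrc57, Trappc12 and Pla2g4b, the last 3 being named after their values were seen. Of the 19, 2 were at least 2-fold higher in -/- cells, and Tlnrd1 was the one with a symbol.

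A further group had its +/+ level between those of the mutants. BC018473, a gene known only by its cDNA name, differed most, at 4.66 and not detected in -/-, 10.66 in A/- and 8.32 in +/+ cells. This is at least 36.5-fold lower in -/- than in A/- cells, and none of the other 10 arrays detected its probe. A second BC018473 probe, not detected in -/- cells, was at 4.99 in -/-, 5.66 in A/- and 4.70 in +/+ cells, so the probes of this gene disagreed in size and in the place of +/+ cells. Slpi, the secretory leukocyte protease inhibitor, was at 7.17 in -/-, 11.30 in A/- and 8.99 in +/+ cells, a difference of -4.13. Dmkn, which encodes the secreted protein dermokine, was at 6.47 in -/-, 10.03 in A/- and 8.13 in +/+ cells, and its second detected probe differed by -3.20. By the brightest probe of each of these genes the -/- array was the lowest and the A/- array the highest of the 3. Cox6a2, a muscle-type subunit of cytochrome c oxidase, was at 5.21 in -/-, 8.32 in A/- and 6.70 in +/+ cells, at least 7.21-fold lower in -/- than in A/- cells. The remaining named genes of this group, the beta globins Hbb-bs and Hbb-bt, are described with the erythroid genes.

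**Figure D1:**
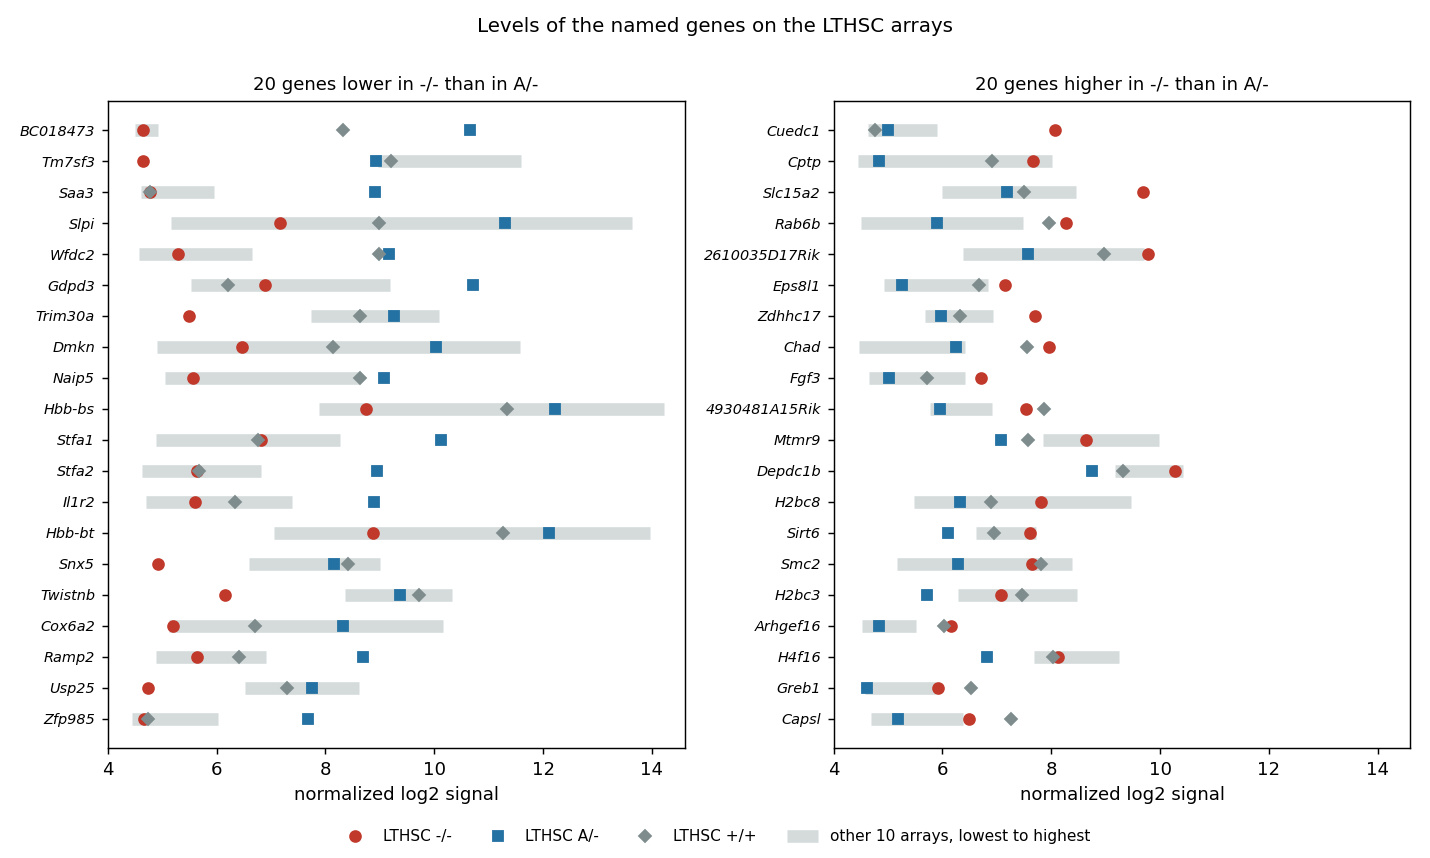
Normalized log2 signal (horizontal axis) of the 20 named genes with the widest lower values (left) and the 20 with the widest higher values (right) in LTHSC -/- against A/- cells, with the +/+ LTHSC array beside them. Each point is 1 array and grey bars span the other 10 arrays. Tm7sf3, at 4.64 in -/- cells, lies left of its bar of 8.97 to 11.59, and Saa3, at 8.91 in A/- cells, lies right of all other arrays.

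Differences in the other direction were smaller and mostly of dimmer probes. Cuedc1, which encodes a protein with a ubiquitin-binding CUE domain, was at 8.06 in -/- cells and not detected in A/- or +/+ cells, at 5.005 and 4.76, nor on the other 10 arrays. This is at least 5.94-fold higher in -/- than in A/- cells. Cptp, the ceramide-1-phosphate transfer protein, was at 7.66 in -/-, 4.84 in A/- and 6.91 in +/+ cells, at least 4.5-fold higher in -/- than in A/- cells. Slc15a2, a transporter of small peptides, was at 9.68 in -/-, 7.19 in A/- and 7.49 in +/+ cells, a difference of 2.49. For Cuedc1 and Slc15a2 the -/- level lay above all 12 other arrays. Rab6b, a Golgi GTPase, was at 8.28 in -/-, 5.91 in A/- and 7.96 in +/+ cells. Chad, a cartilage matrix protein, was at 7.96 in -/-, 6.25 in A/- and 7.55 in +/+ cells. Zdhhc17, a palmitoyltransferase, was at 7.70 in -/-, 5.97 in A/- and 6.33 in +/+ cells. Of these 3 genes, Zdhhc17 had its +/+ level near that of A/- cells, and the others near that of -/- cells.

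Some of the higher genes act on chromatin and cell division. Depdc1b, which helps cells detach as they enter mitosis, was at 10.27 in -/-, 8.75 in A/- and 9.31 in +/+ cells. Smc2, a core subunit of condensin, was at 7.64 in -/-, 6.28 in A/- and 7.82 in +/+ cells. The A/- array was the lowest of the 3 for both. Sirt6, a chromatin deacylase, was at 7.60 in -/-, 6.11 in A/- and 6.94 in +/+ cells, but its other 2 detected probes differed by 0.16 and -0.72, so its probes disagreed. The histone genes H2bc8, H2bc3 and H4f16 are described below. Of the rest of the 20, 2610035D17Rik, 4930481A15Rik and Mtmr9 were detected in both mutants, with differences of 2.20 for 2610035D17Rik, 1.57 for 4930481A15Rik and 1.56 for Mtmr9. Eps8l1, Fgf3, Arhgef16, Greb1 and Capsl were not detected in A/- cells, and their bounds run from at least 1.35-fold higher in -/- cells for Greb1 to at least 3.15-fold for Eps8l1. Arhgef16, Greb1 and Capsl fell under 2-fold when the LTHSC arrays were normalized alone.

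A second probe bore on the direction of the named calls. Of the 237 genes at least 2-fold lower in -/- cells, 52 had a further detected probe, and for 42 of these it had the same sign. For 16 all detected probes were at least 2-fold lower by their measured levels. Of the 83 genes at least 2-fold higher, 26 had a further detected probe, with the same sign in 22 and at least 2-fold in 3. The 6 probes of Hbb-bs differed by -3.31 to -4.93, the weakest of the 4 of Hbb-bt by -3.24 and the 3 of Chil3, a chitinase-like protein of neutrophils, by -1.41 to -1.78. Both probes of Stfa1 differed by over 3. On the higher side the 3 such genes were Smc2, Pik3r6, a regulatory subunit of phosphoinositide 3-kinase gamma, and 4930503L19Rik. Only 4930503L19Rik had both probes detected on both arrays, with differences of 1.05 and 1.08, while the second probe had a bound of at least 1.42-fold in Smc2 and 1.81-fold in Pik3r6.

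**Figure D2:**
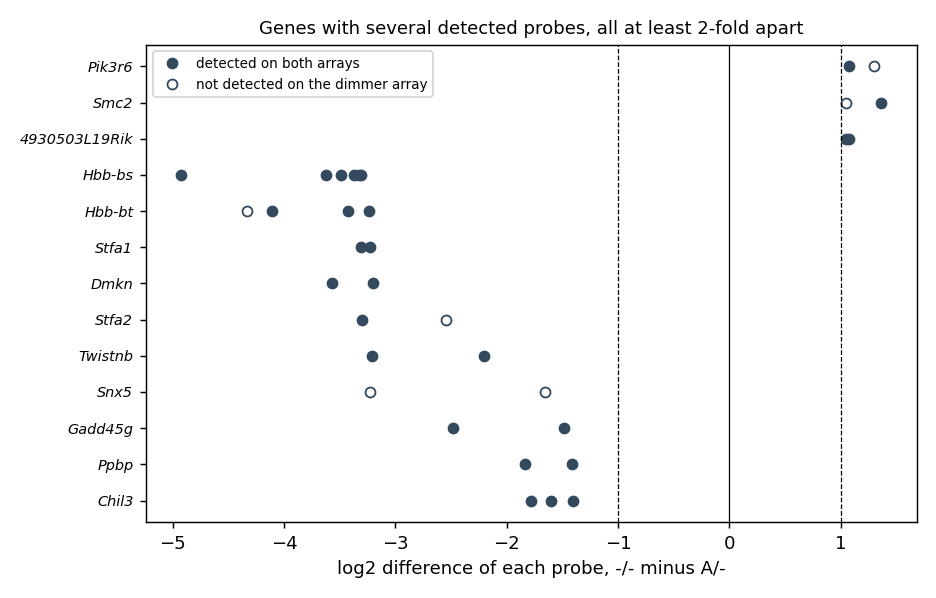
Log2 difference, -/- minus A/- (horizontal axis), of every detected probe of genes for which 2 or more probes were detected and all were at least 2-fold apart in 1 direction by their measured levels; each point is a probe, and open points, in Pik3r6, Smc2, Hbb-bt, Stfa2 and Snx5, were not detected on the dimmer array. The 3 genes on the higher side lie close to the 2-fold line, and the 6 probes of Hbb-bs lie between -3.31 and -4.93.

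Of the 42 gene lists examined, the late neutrophil granule genes had the highest share of members at least 2-fold lower in -/- cells and the lowest median. These genes encode the proteins stored in the secondary and tertiary granules of maturing neutrophils, and the proteins of mature neutrophil cytosol and membrane. As a list they mark neutrophil maturation, though Ltb4r1 is also among the stem cell identity genes and single members may be made by other cells. Of 39 genes 36 were measured and 34 detected, and 17 of the 34 were at least 2-fold lower and 1 at least 2-fold higher in -/- than in A/- cells. The lower share of 50% compares with 3.08% of all features, and the median difference of the list was -1.0, against 0.01 for all features. With the LTHSC arrays normalized alone 15 were at least 2-fold lower, and in the authors' processed values 12 were. The list's mean level was 9.45 in -/-, 10.47 in A/- and 9.995 in +/+ cells.

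Several of the best known members encode stored granule proteins. Ltf, the iron-binding lactoferrin, was at 12.58 in -/-, 13.78 in A/- and 13.48 in +/+ cells, a difference of -1.20. Lcn2, which binds bacterial siderophores, was at 12.30 in -/-, 13.73 in A/- and 12.94 in +/+ cells, a difference of -1.43. Camp, the cathelicidin antimicrobial peptide, was at 12.19 in -/-, 13.22 in A/- and 13.16 in +/+ cells, a difference of -1.03. The -/- array was the lowest of the 3 for each. Ngp, neutrophilic granule protein, was at 12.28 in -/-, 13.19 in A/- and 12.81 in +/+ cells, a difference of -0.91. Mmp9, the granule gelatinase, was at 8.86 in -/-, 10.18 in A/- and 9.48 in +/+ cells, a difference of -1.31. The -/- array was again lowest in both.

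Other members of the list varied. Ifitm6, an interferon-induced transmembrane family member, was at 9.66 in -/-, 11.90 in A/- and 10.16 in +/+ cells, a difference of -2.24. Ffar2, which senses short-chain fatty acids, was at 9.70 in -/-, 11.20 in A/- and 11.38 in +/+ cells, a difference of -1.49. Cd177, a surface protein of neutrophils, was at 9.12 in -/-, 10.49 in A/- and 9.96 in +/+ cells. For Ifitm6 the +/+ level lay near that of -/- cells, and for Ffar2 near that of A/- cells. The calprotectin subunits differed less, S100a8 at 15.10 in -/-, 15.42 in A/- and 15.39 in +/+ cells and S100a9 at 14.42 in -/-, 14.95 in A/- and 14.77 in +/+ cells. The lysozymes lay closer still, with differences of -0.13 for Lyz1 and 0.06 for Lyz2. Cebpe, the transcription factor needed for secondary granules, was at 9.59 in -/-, 9.43 in A/- and 10.14 in +/+ cells. Padi4, which citrullinates histones in neutrophils, was the member at least 2-fold higher, at 7.76 in -/-, 6.65 in A/- and 6.46 in +/+ cells, but not with the LTHSC arrays normalized alone. Chil3 and Chil4 are near-identical copies, and the probes of each may read both.

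Genes of earlier myeloid cells had a median near 0. Of 31 detected primary granule and myeloid progenitor genes, 3 (9.68%, beside 3.08% of all features) were at least 2-fold lower and 0 higher. Their median was -0.10. The 3 were Dmkn, Id2 and Fcgr3. Fcgr3, the Fc receptor CD16, was at 8.04 in -/-, 9.34 in A/- and 9.57 in +/+ cells. Among markers of other cell types, 3 of 24 detected macrophage and dendritic cell genes, 1 of 16 mast cell, basophil and eosinophil genes and 0 of 10 B, T and NK cell genes were at least 2-fold lower, with none higher. These are 12.5%, 6.25% and 0%, beside 3.08% of all features, and with the LTHSC arrays normalized alone 0 of the macrophage and dendritic cell genes were lower. The list means of -/- and A/- cells were 7.75 and 7.93 for macrophages and dendritic cells. They were 9.07 and 9.33 for mast cells, basophils and eosinophils, and 8.57 and 8.89 for B, T and NK cells. The 24 and the 10 detected genes were of 40 measured macrophage and dendritic cell genes and 28 measured B, T and NK cell genes. The 3 lower macrophage and dendritic cell genes were Ctss, Siglech and Ccl6. Ctss was at 6.61 in -/- and 7.85 in A/- cells, Siglech at 6.59 in -/- and 7.88 in A/- cells, and Ccl6 was not detected in -/- cells. Those detected in neither mutant included macrophage markers C1qa, Mrc1 and Marco, and lymphocyte markers Cd3e, Cd4, Ms4a1 and Pax5. Late granule transcripts such as Ltf and Camp were detected on all 3 LTHSC arrays, and the part of neutrophil RNA in the other differences was not tested.

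**Figure D3:**
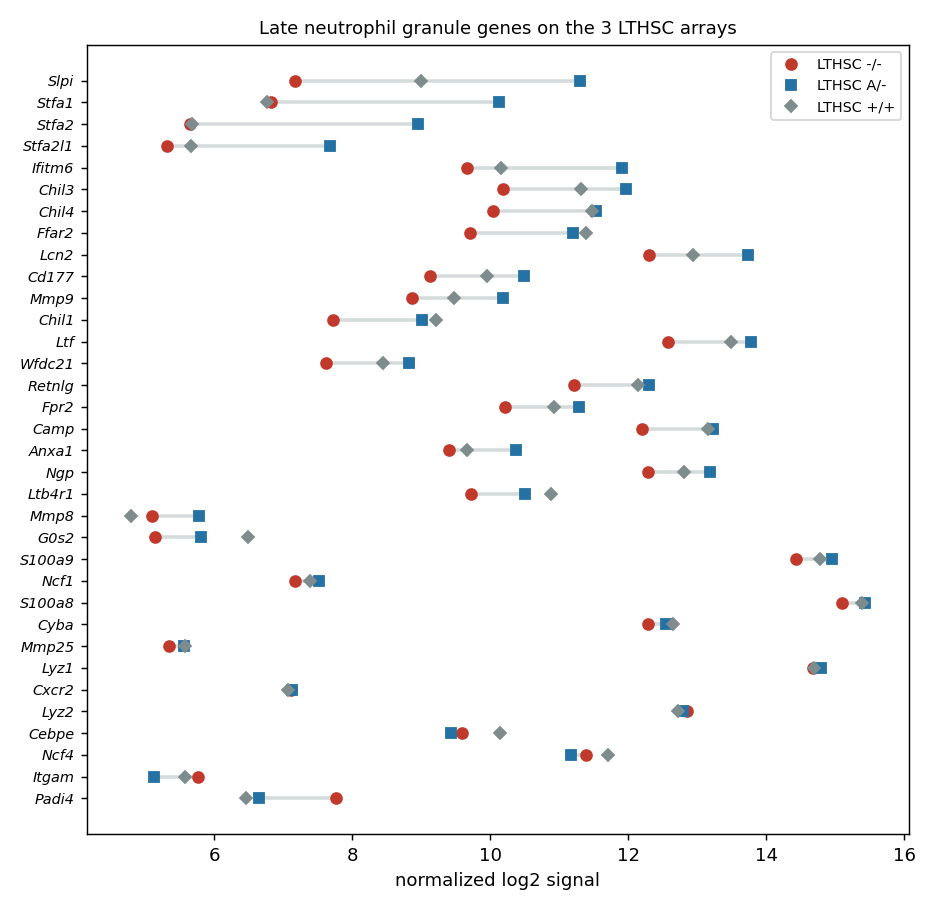
Normalized log2 signal (horizontal axis) of the 34 detected late neutrophil granule genes, sorted by difference, on the LTHSC -/-, A/- and +/+ arrays; each point is 1 array and grey lines join -/- and A/-. From Slpi down to Camp 17 genes lie at least 2-fold lower in -/- than in A/- cells, and Padi4 at the bottom lies the other way.

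Globins were lower in -/- cells while most other erythroid genes were not. Hbb-bs, an adult beta globin whose promoter is printed above, was at 8.74 in -/-, 12.23 in A/- and 11.35 in +/+ cells, a difference of -3.49. Hbb-bt, the other adult beta globin, was at 8.87 in -/-, 12.11 in A/- and 11.27 in +/+ cells. Hba-a1, an adult alpha globin, was at 8.74 in -/-, 11.53 in A/- and 10.80 in +/+ cells, a difference of -2.79. The -/- array lay over 2 below both other LTHSC arrays for each globin. Near-identical copies make the single globin genes uncertain, since probes may read several of them. Of 29 detected erythroid genes, these 3 (10.3%) were at least 2-fold lower and 1 (3.45%) at least 2-fold higher. The shares of all features were 3.08% and 1.14%. Still, 21 of the 29 erythroid genes had a positive difference, beside 6421 of all 12587 features, and their median was 0.24. Klf1, the master transcription factor of red cells, was at 8.41 in -/-, 7.18 in A/- and 10.52 in +/+ cells, a difference of 1.24. Car1, an erythroid carbonic anhydrase, was at 10.32 in -/-, 9.50 in A/- and 13.51 in +/+ cells. Gata1 was at 6.44 in -/-, 5.76 in A/- and 7.23 in +/+ cells. Both mutants thus lay below +/+ cells for these regulators and for Car1, with A/- lowest. With the LTHSC arrays normalized alone, Klf1 differed by 0.96 and fell short of 2-fold.

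STAT5 is a transcription factor switched on by cytokine receptors and by c-Kit, and its targets include feedback inhibitors and D cyclins. Of 20 target genes all were measured and 18 detected, and 6 (33.3%) were at least 2-fold lower and 1 (5.56%) at least 2-fold higher in -/- cells, beside 3.08% and 1.14% of all features. The median was -0.28, and 5 were at least 2-fold lower with the LTHSC arrays normalized alone and 4 in the authors' values. Socs3, a feedback inhibitor of cytokine receptors whose promoter is printed above, was at 9.32 in -/-, 11.38 in A/- and 9.09 in +/+ cells, a difference of -2.07. Dpp4, the peptidase CD26 that cleaves the homing chemokine CXCL12, was at 7.09 in -/-, 9.47 in A/- and 9.13 in +/+ cells, a difference of -2.39. A/- cells were the highest of the 3 for both genes. Ccnd1, cyclin D1, was at 9.72 in -/-, 11.19 in A/- and 10.32 in +/+ cells, and its other 2 probes differed by -1.61 and -0.83. Gadd45g, a stress-induced growth regulator, was at 9.33 in -/-, 10.82 in A/- and 9.72 in +/+ cells. Id1, an inhibitor of basic helix-loop-helix factors, was at 5.88 in -/-, 7.41 in A/- and 5.73 in +/+ cells. Bcl6, a transcriptional repressor, was at 7.41 in -/-, 8.65 in A/- and 8.06 in +/+ cells, and fell short of 2-fold with the LTHSC arrays normalized alone.

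Other STAT5 targets ran level or the other way. Socs2, also a feedback inhibitor, was at 10.72 in -/-, 9.71 in A/- and 8.89 in +/+ cells, a difference of 1.02 that dropped to 0.86 with the LTHSC arrays normalized alone. Cish, which is induced by STAT5 and dampens it, was at 11.35 in -/-, 11.56 in A/- and 10.99 in +/+ cells. Pim1, a survival kinase, was at 9.46 in -/-, 8.93 in A/- and 8.47 in +/+ cells. For Socs2 and Pim1 the -/- array was the highest and the +/+ array the lowest. Of the 18 genes 12 had a promoter in the RefSeq table, and the STAT motif was found in 3 (25%), Bcl6, Cish and Socs3, of which Bcl6 and Socs3 were at least 2-fold lower.

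**Figure D4:**
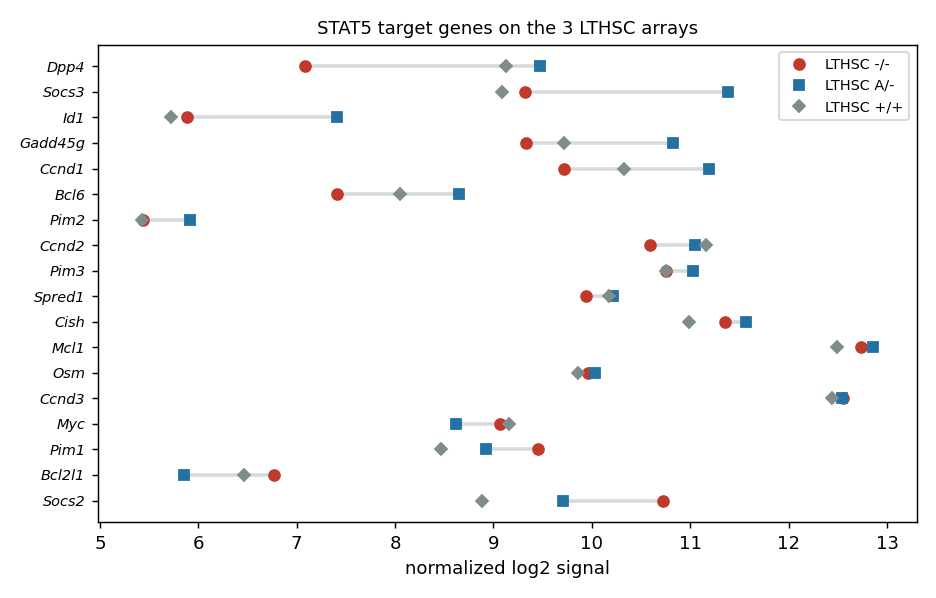
Normalized log2 signal (horizontal axis) of the 18 detected STAT5 target genes, sorted by difference, on the LTHSC -/-, A/- and +/+ arrays; each point is 1 array and grey lines join -/- and A/-. Dpp4, Socs3, Id1, Gadd45g, Ccnd1 and Bcl6 lie at least 2-fold lower in -/- than in A/- cells, and Socs2 at the bottom lies 1.02 higher.

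The proteins that work with c-Cbl differed little at the level of RNA. Of 26 detected genes of the Cbl family, its receptors and adaptors, 0 were at least 2-fold apart, and the median was 0.06. Cblb, the nearest relative of Cbl, was at 8.13 in -/-, 7.96 in A/- and 8.23 in +/+ cells. Crkl, an adaptor that binds phosphorylated c-Cbl, was at 9.73 in -/-, 8.996 in A/- and 9.36 in +/+ cells, a difference of 0.73. Gab2, a docking protein that recruits phosphoinositide 3-kinase, was at 6.01 in -/- and not detected in A/- or +/+ cells, at 5.09 and 5.24. None of 24 phosphoinositide kinase and phosphatase genes was at least 2-fold apart, with a median of -0.02. Among 17 RAS-ERK feedback and target genes, Ccnd1 was the one at least 2-fold lower (5.88%, beside 3.08% of all features), and the median was -0.21. Dusp6, the phosphatase that ERK induces against itself, was at 11.15 in -/-, 11.92 in A/- and 11.41 in +/+ cells, a difference of -0.77. Dusp4 was at 7.92 in -/-, 8.59 in A/- and 7.76 in +/+ cells. Both phosphatases stayed within 2-fold. Of 44 detected genes among the 100 nearest measured neighbours of Cbl on its chromosome, 2 (Nlrx1 and Il10ra, or 4.55% beside 3.08% of all features) were at least 2-fold lower and 0 higher, and 0 were with the LTHSC arrays normalized alone.

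Immediate early genes, which respond to stimulation within minutes, were mixed. Of 18 detected, Jun (5.56%, beside 1.14% of all features) was at least 2-fold higher, at 9.43 in -/-, 8.25 in A/- and 8.94 in +/+ cells. Jun fell short of 2-fold with the LTHSC arrays normalized alone. Csrnp1 (5.56%, beside 3.08% of all features) was at least 2-fold lower, at 9.26 in -/-, 10.81 in A/- and 10.80 in +/+ cells. Fos was level between the mutants, at 12.40 in -/-, 12.39 in A/- and 11.64 in +/+ cells. Egr1 was at 13.42 in -/-, 13.11 in A/- and 12.16 in +/+ cells. Both mutants lay above +/+ cells for Fos and Egr1.

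Most stem cell genes were alike between the mutants. Of 33 detected stem cell identity genes, 2 (6.06%, beside 3.08% of all features) were at least 2-fold lower and 0 higher, and the median was -0.07. Only 1 was lower with the LTHSC arrays normalized alone. Meis1, a homeobox factor that maintains LTHSC, was at 12.78 in -/-, 12.78 in A/- and 12.62 in +/+ cells. Mecom, a factor needed for LTHSC upkeep, was at 6.72 in -/-, 6.72 in A/- and 6.46 in +/+ cells. Gata2 was at 13.17 in -/-, 13.09 in A/- and 13.05 in +/+ cells. The 3 arrays lay within 0.30 of each other for each of these factors. Sult1a1, a sulfotransferase, was at 8.90 in -/-, 11.32 in A/- and 9.84 in +/+ cells, a difference of -2.41. Vwf, the von Willebrand factor of platelet-biased stem cells, megakaryocytes and endothelium, was at 9.46 in -/-, 10.56 in A/- and 9.66 in +/+ cells, a difference of -1.11. Among 25 detected megakaryocyte and platelet genes, Vwf and Ppbp (8.0%, beside 3.08% of all features) were at least 2-fold lower. Ppbp, a platelet chemokine, was at 6.58 in -/-, 8.41 in A/- and 5.24 in +/+ cells. With the LTHSC arrays normalized alone 1 of the list was at least 2-fold lower.

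Some dim lymphoid priming genes were lower in -/- cells. Of 17 detected, 3 (17.6%, beside 3.08% of all features) were at least 2-fold lower and 0 higher, with a median of -0.40, and none of the 3 was detected in -/- cells. Dntt, the terminal transferase of early lymphoid cells, was not detected in -/- cells, at 5.46 beside a lowest detected level of 5.47, against 7.40 in A/- and 6.99 in +/+ cells, at least 3.81-fold lower in -/- than in A/- cells. Ly6d was at 5.03 and not detected in -/-, 7.03 in A/- and 6.10 in +/+ cells. Vpreb3 was at 5.17 and not detected in -/-, 6.66 in A/- and 7.85 in +/+ cells. The -/- array was lowest for all 3. Igll1, the surrogate light chain, was at 5.51 in -/-, 5.96 in A/- and 9.83 in +/+ cells, so that both mutants lay far below +/+ cells. In the authors' processed values 0 of the 17 were at least 2-fold lower.

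Genes of the TGF-beta, BMP, Notch and Wnt pathways held 4 of 30 detected genes (13.3%, beside 3.08% of all features) at least 2-fold lower and 0 higher, with a median of -0.11. Only 2 were lower with the LTHSC arrays normalized alone. Id2, which blocks basic helix-loop-helix factors, was at 6.27 in -/-, 8.37 in A/- and 6.98 in +/+ cells, a difference of -2.10. Hes1, a Notch target, was at 5.66 in -/-, 6.78 in A/- and 5.24 in +/+ cells. Bmpr1a, a BMP receptor, was not detected in -/- cells, at 5.45, against 6.67 in A/- and 6.83 in +/+ cells. Id1 was the fourth. Of 33 detected NF-kB and inflammatory genes, 5 (15.2%) were at least 2-fold lower and Il6 (3.03%) at least 2-fold higher. The shares of all features were 3.08% and 1.14%. With the LTHSC arrays normalized alone the NF-kB and inflammatory count dropped to 1 lower and 0 higher. The 5 were all dim, and the one detected on both arrays was Il1b, interleukin-1 beta, at 5.89 in -/-, 7.12 in A/- and 6.29 in +/+ cells. Among 18 detected stroma and endothelium genes, Cldn5, Cxcl12 and Vwf were at least 2-fold lower (16.7%, beside 3.08% of all features). With the LTHSC arrays normalized alone 2 of the list were. The 18 detected genes were of 37 measured, and those detected in neither mutant included Cdh5, Kdr, Col1a1 and Lepr. Cldn5, the tight junction protein claudin 5, was not detected in -/- or +/+ cells, at 4.80 and 5.12, against 7.04 in A/- cells.

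Most division and chaperone genes had small positive differences. Of all 12587 features, 6421 had a positive difference. Of 48 detected DNA replication and mitosis genes, 37 had a positive difference, with a median of 0.15. Smc2 was the one at least 2-fold higher (2.08%, beside 1.14% of all features). Top2a, the topoisomerase of dividing cells, was at 11.90 in -/-, 11.18 in A/- and 11.24 in +/+ cells. Plk1, a mitotic kinase, was at 10.65 in -/-, 10.04 in A/- and 11.03 in +/+ cells. The A/- array was lowest for both. Of 26 detected heat shock and chaperone genes, 20 had a positive difference, with a median of 0.18, and 0 were at least 2-fold apart. Hsph1, a chaperone of the Hsp110 family, was at 11.85 in -/-, 11.19 in A/- and 10.98 in +/+ cells. Cytoplasmic ribosomal protein genes, with 55 detected, had a median of -0.01 and 0 at least 2-fold apart, as did the 35 Myc and ribosome biogenesis genes, with a median of 0.02.

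Histone genes had 3 members on the higher side, the highest count of the 42 lists, but the lists differ in length. As a share, the 5.56% was equal to that of the STAT5 targets and of the immediate early genes. Of 54 detected, 3 (5.56%) were at least 2-fold higher and 0 lower, beside 1.14% of all features, with a median of 0.10. H2bc8, an H2B gene whose promoter is printed above, was at 7.82 in -/-, 6.32 in A/- and 6.90 in +/+ cells, a difference of 1.49. H2bc3, another H2B gene, was at 7.08 in -/-, 5.72 in A/- and 7.47 in +/+ cells, a difference of 1.36. H4f16, an H4 gene, was at 8.13 in -/-, 6.81 in A/- and 8.02 in +/+ cells, and its second probe differed by 0.61. A/- was the lowest of the 3 arrays for each, and 0 of the list were at least 2-fold higher in the authors' processed values. Histone genes are near-identical within a family, so a probe may read several of them. Of the 54, 48 had a promoter in the RefSeq table, and CCAAT was found in 39 (81.2%) and TATAAA in 24 (50%), beside 37.4% and 13.6% of all promoters. These shares describe the family as a whole and not its differences between the arrays.

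The remaining lists held few members at least 2-fold apart, though in a short list few members can be a share above that of all features. Among 17 detected cyclin D and CDK inhibitor genes, Ccnd1 and Cdkn1a were lower (11.8%, beside 3.08% of all features). Cdkn1a, the p21 inhibitor of the cell cycle, was at 7.97 in -/-, 9.05 in A/- and 7.58 in +/+ cells. Among 28 genes of the unfolded protein and amino acid response, Chac1 and Trib3 were lower (7.14%). Chac1, a glutathione-degrading enzyme, was at 5.35 in -/-, 7.26 in A/- and 4.94 in +/+ cells. A/- cells had the highest level of both Cdkn1a and Chac1. Only 1 gene of each of these lists was lower with the LTHSC arrays normalized alone. Of 38 ubiquitin ligase and conjugation genes, Usp8, a deubiquitinase of endocytosed receptors, was the one higher (2.63%, beside 1.14% of all features). Usp8 was at 7.68 in -/-, 6.66 in A/- and 7.43 in +/+ cells, but not 2-fold higher with the LTHSC arrays normalized alone. Trim30a was the one lower (1.96%) of 51 interferon response genes, whose median was 0.11. Of 66 respiratory chain and ATP synthase genes Atp5k alone (1.52%) was lower, which dropped to 0 with the LTHSC arrays normalized alone. Of 15 HoxA, HoxB and Meis genes 0 were apart in either direction.

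**Figure D5:**
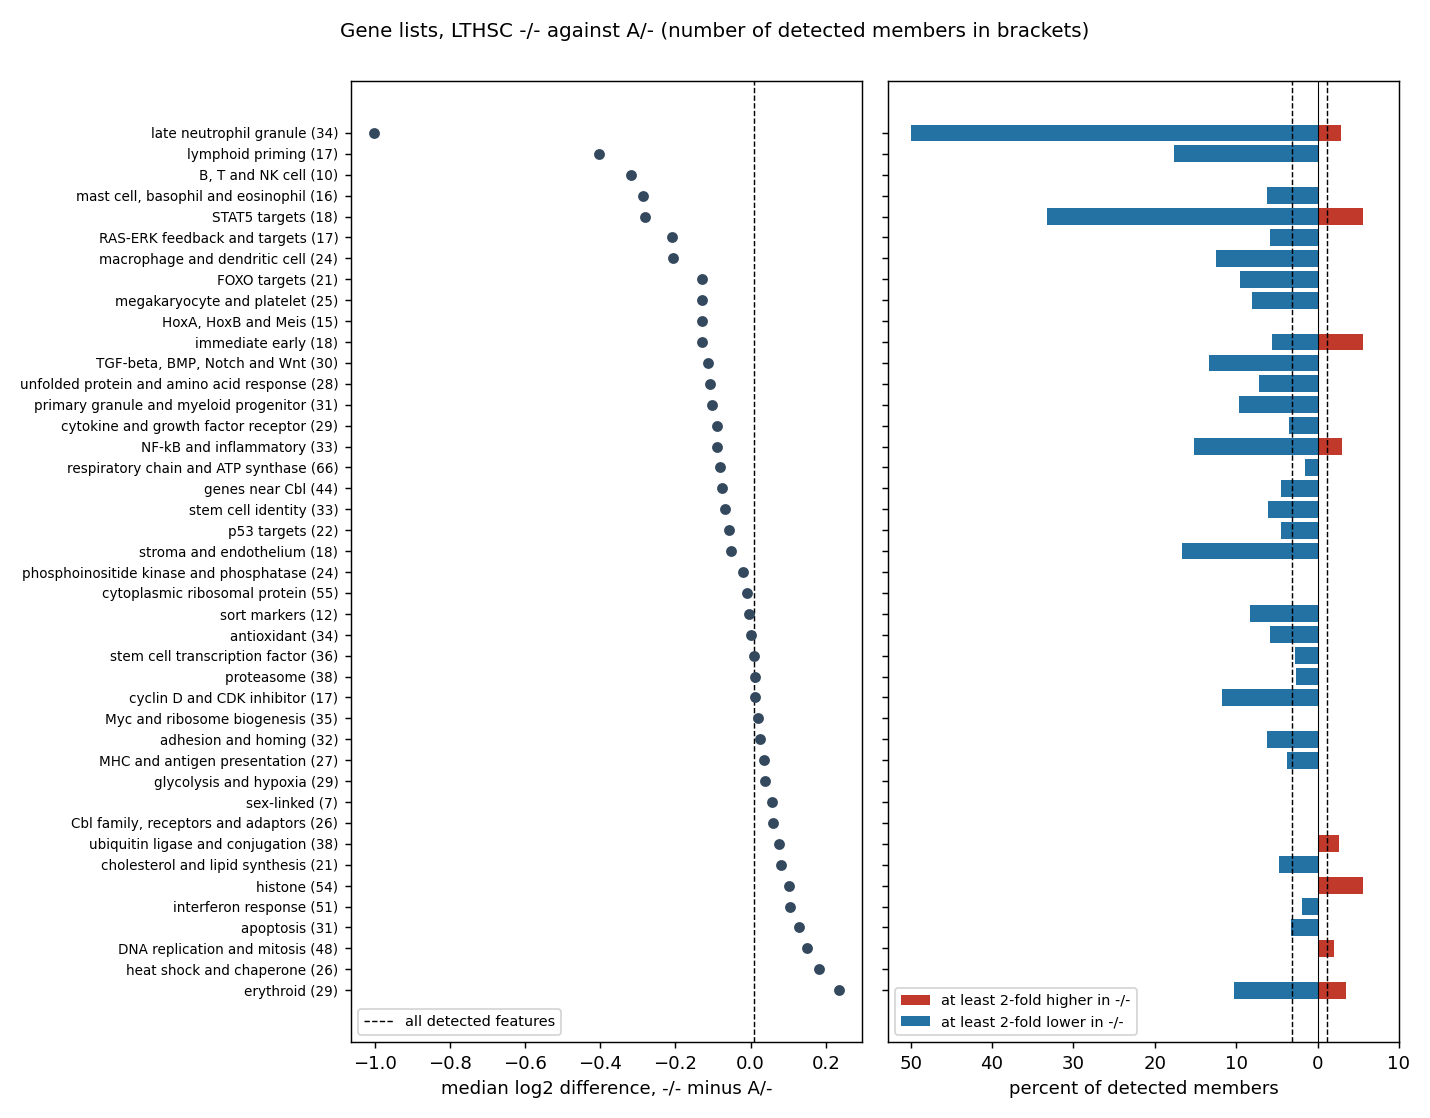
The 42 gene lists in LTHSC -/- against A/- cells: median log2 difference of the detected members (left) and percent of them at least 2-fold higher (right of 0) or lower (left of 0) in -/- cells (right panel). Dashed lines give the values of all 12587 features, 1.14% higher and 3.08% lower. Late neutrophil granule genes lie farthest to the left, at -1.0 and 50% lower, and STAT5 targets follow with 33.3% lower.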

How the data were processed

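Sorted cells gave total RNA, which was turned into biotin-labelled cRNA for the arrays, per the labels' protocols. One table that the authors deposited holds, per the file headers, the linear intensity and the detection p-value of 45281 probes for 13 arrays, before normalization. Processed intensities were deposited as well, made in a way the labels leave unstated, and the log2 of these values served as an alternative. The first table was analysed with limma 3.58.1 (R 4.3.3). Its neqc function estimated background through the detection p-values, used 16 as the offset and applied quantile normalization across the 13 arrays before taking log2. Quantile normalization removes any difference in total RNA. The LTHSC arrays were dimmer than the other 10, and normalized alone they gave smaller differences, so the report gives those counts where calls were lost.

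The platform annotation gave 34885 probes 1 symbol and 18 several, and 10378 were not listed. A gene is represented by its brightest probe on average, which left 29453 features. A bound compares the brighter array with the higher of the dim probe's own level and the lowest detected level on the dim array. With 1 array per genotype no test was run. The fold code was run on simulated data with planted 4-fold and 8-fold differences. That run tried neither the 2-fold threshold nor the joint normalization of all arrays, so it does not vouch for the counts above. Named are the 20 highest and 20 lowest differences with a symbol and the same sign in the authors' values, genes whose detected probes were all at least 2-fold apart (up to 10 each way), Cbl and sort markers, and up to 6 members of a gene list with the largest differences, or those that anchor it. Members, naming rule and the 42 lists were chosen with earlier results of these data known. Promoters are RefSeq's, assembly GRCm38.p6. Alternatives were other normalizations, background corrections, offsets, detection limits, fold thresholds and probe summaries.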

Additional observations from a re-analysis of the deposited data

How the results depend on the processing

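Of 388 features lower and 143 higher in -/- than in A/- cells, the counts were 238 lower and 38 higher with the 3 LTHSC arrays normalized alone, and the same with the 2 mutant arrays alone. They were 152 and 13 in the authors' processed values, 246 and 34 with scaling to the 75th percentile, 246 and 32 with cyclic loess, 169 and 19 without background correction, and 249 and 44 with an offset of 50. Where both arrays had to detect the probe, 262 were lower and 82 higher. With the bound in place of the measured fold for undetected probes, an alternative chosen after seeing the data, 319 were lower and 97 higher. A detection p under 0.05 gave 388 and 143, and the mean of a gene's detected probes 387 and 124. The lower share was 73.1% in the main setting and 73.1% to 92.1% under these alternatives, all at the 2-fold threshold. At a 1.5-fold threshold 1099 were lower and 723 higher, so the lower share dropped to 60.3%. At 3-fold 163 were lower and 19 higher, or 89.6% lower. Of 45 named genes at least 2-fold apart, 0 changed sign. The naming rule required the sign of the authors' values, so the 0 was fixed in advance for that setting. The 45 were also picked for differences of at least 2-fold between these same 2 arrays. A change of sign was thus unlikely under any setting, and the 0 does not vouch for the calls. Where both arrays had to detect the probe, only 30 of the 45 could be scored. With the LTHSC arrays alone 5 fell under 2-fold (4930503L19Rik, Arhgef16, Capsl, Greb1 and Pik3r6), and in the authors' values 16 did, all higher in -/- cells. Late neutrophil granule genes at least 2-fold lower numbered 12 to 17, and STAT5 targets 4 to 6. No paired analysis was possible because each genotype has 1 array, so no replicate could be left out either. Probes near the lowest detected level, 5.47 on the -/- and 5.49 on the A/- array, limit the folds of dim genes to bounds.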
